A study of Mus musculus with 4 samples.

Results

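The Hox genes of 4 mouse melanocyte lines were examined cluster by cluster. Every gene whose symbol starts with Hoxa, Hoxb, Hoxc or Hoxd followed by a digit was taken. The rule gave 36 of the 18193 genes that have a probe set of their own in the annotation, of which 33 were coding genes and 3 were the antisense transcripts Hoxa11os, Hoxb5os and Hoxd3os1. The gene table used here holds 39 coding Hox genes, and those with no probe set listed for them alone were not analysed here. Where several probe sets measured a gene, the one brightest on average (log2 scale, 4 lines) was used.

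The lines are immortalized melanocytes established from the skin of C57BL/6J pups aged 3 days, and each was hybridized to 1 Affymetrix array. In bcat* mice a stable, transcriptionally active mutant β-catenin is produced in the melanocyte lineage, whereas wild-type (WT) mice lack it. By the labels, 9v was a male WT line, 14d a female WT line, 10d a male bcat* line and 13d a female bcat* line. The article's methods instead give 13d as WT and 14d as bcat*, so each value is reported by line name. The methods also describe the mice as male, unlike the labels of 13d and 14d. Every culture contained 200 nM TPA, which melanocytes need to grow, and was harvested at 80% confluency, and fibroblasts had been removed with G418 when the lines were established. From which part of the body the skin was taken is not stated in the labels or the methods. The RNA integrity number was 9.7 for 9v, 9.8 for 10d, 9.9 for 13d and 9.8 for 14d.

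Hox genes encode homeodomain transcription factors that give cells of the embryo their position along the head-to-tail axis. They lie in 4 clusters, in which genes at one end (low paralogue numbers) are switched on early and toward the head and genes at the other end late and toward the tail. In the neural crest, from which melanocytes arise, crest cells of the anterior head carry no Hox code, while cells of the hindbrain and trunk carry one that follows their level of origin. In humans, fibroblasts of adult skin are known to keep such a code. Polycomb complexes hold Hox genes silent, and trithorax (Mll) complexes and retinoic acid maintain or induce them.

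Most Hox genes lay below an intensity of 32 (a log2 value of 5), the level used here for detection, in every line. Of the 36 Hox genes, 5 (13.9%, against 51.8% of all genes) were at 32 or more in at least 1 line. They were Hoxa5, Hoxb2, Hoxb3, Hoxb4 and Hoxb9. There were 2 at this level in 9v, 2 in 10d, 4 in 13d and 4 in 14d. Only Hoxa5 and Hoxb3 reached it in all 4 lines. In 10d and 14d Hoxa5 did so by 1 of its 2 probe sets, and Hoxb3 was near the level in 9v (35) and 10d (37). In HoxA it was 1 of 9 coding genes (Hoxa5), in HoxB 4 of 9, and in HoxC 0 of 7 and in HoxD 0 of 8. By paralogue number, 4 of 13 coding genes of groups 1 to 5 reached the level in a line, against 1 of 20 of groups 6 to 13, the exception being Hoxb9. This cut was not part of the plan and lies just after Hoxa5, so the contrast is not independent of the values. Hoxb2 reached the level in 14d alone, and Hoxb4 passed it narrowly in 13d and 14d.

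**Figure D1:**
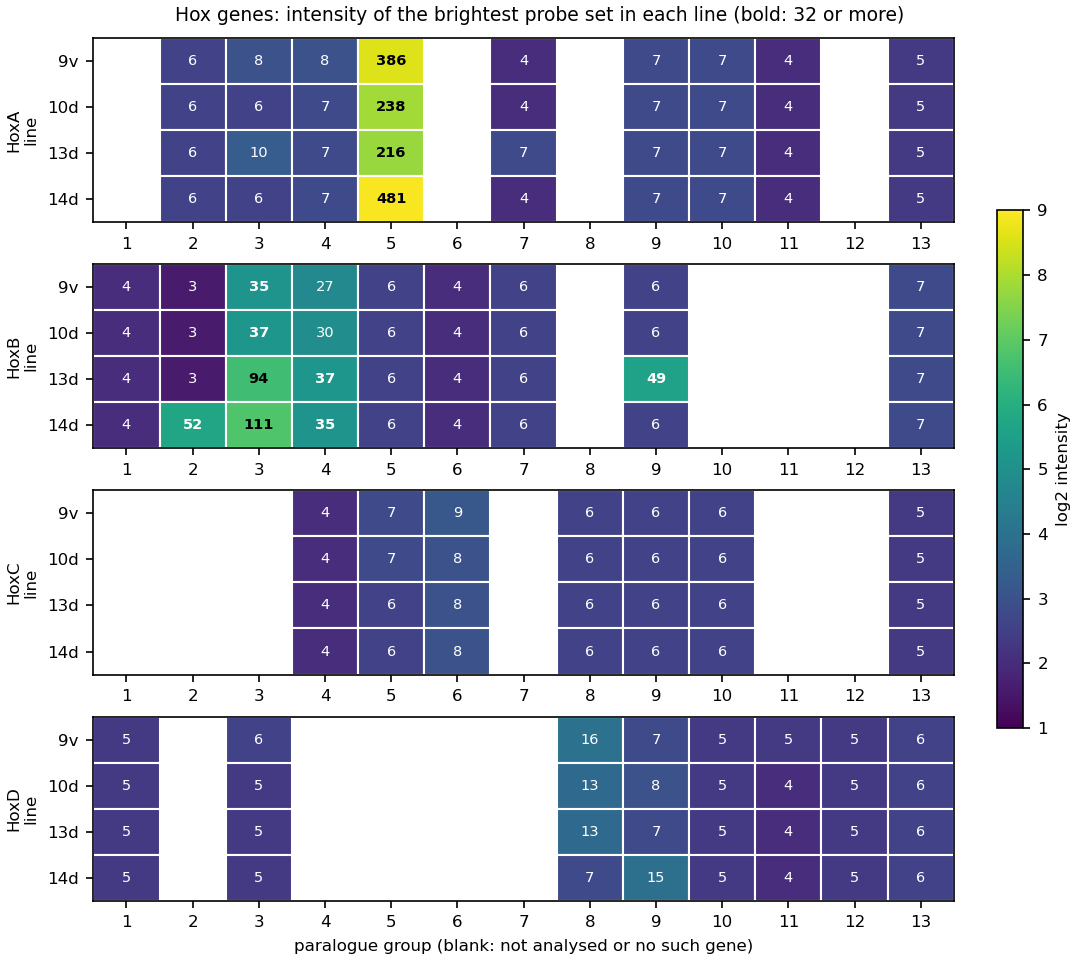
Intensity of each coding Hox gene in each line, with paralogue groups 1 to 13 on the horizontal axis, 1 panel per cluster and 1 strip per line. Colour gives the log2 intensity and the printed number the intensity itself, in bold at 32 or more, and the bold values sit at Hoxa5 and in HoxB at groups 2, 3, 4 and 9, while the HoxC and HoxD panels hold none.

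The promoters of 3 of these genes are shown, because CpG-rich promoters are where Polycomb and trithorax complexes act on Hox genes. The first is that of Hoxa5, which was at 32 or more in every line by its brightest probe set. The others are those of Hoxb4, which lay beside the level, and of Hoxa7. Hoxa7, the nearest measured neighbour of Hoxa5 on its posterior side, read 4 in 9v, 4 in 10d, 7 in 13d and 4 in 14d. Each sequence is the 250 bases before the annotated start of the gene (RefSeq, GRCm38.p6), 5′ to 3′ on the strand of the gene, with each CG dinucleotide in capitals. The table of promoters gave none for Hoxb2, Hoxb3 and Hoxb9.
Hoxa5 (chr6:52204588-52204837, minus strand): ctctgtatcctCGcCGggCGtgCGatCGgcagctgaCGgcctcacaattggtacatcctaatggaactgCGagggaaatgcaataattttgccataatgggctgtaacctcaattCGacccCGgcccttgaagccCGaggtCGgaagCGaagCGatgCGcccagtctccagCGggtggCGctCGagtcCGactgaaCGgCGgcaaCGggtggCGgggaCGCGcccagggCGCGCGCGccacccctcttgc
Hoxb4 (chr11:96318017-96318266, plus strand): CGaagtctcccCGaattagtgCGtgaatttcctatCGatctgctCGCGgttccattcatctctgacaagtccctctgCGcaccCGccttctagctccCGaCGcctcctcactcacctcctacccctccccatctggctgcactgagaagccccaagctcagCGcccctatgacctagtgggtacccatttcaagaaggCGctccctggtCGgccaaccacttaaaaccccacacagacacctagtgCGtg
Hoxa7 (chr6:52218574-52218823, minus strand): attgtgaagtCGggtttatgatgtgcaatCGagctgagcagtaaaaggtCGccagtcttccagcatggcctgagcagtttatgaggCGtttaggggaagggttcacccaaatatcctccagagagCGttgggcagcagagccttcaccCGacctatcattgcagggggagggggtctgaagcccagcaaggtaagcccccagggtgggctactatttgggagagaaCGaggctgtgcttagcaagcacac

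The Hoxa5 sequence lies within the annotated span of Hoxa3. It held 28 CG dinucleotides, with 63.6% G and C and a ratio of observed to expected CG of 1.11. Of all 32851 promoter sequences of the same length, 7.61% held as many. The Hoxb4 sequence, which lies within the annotated span of Hoxb3, held 14 (29.4% of all promoters held as many). The Hoxa7 sequence held 7, which 46.3% of all promoters matched or passed. The undetected genes Hoxa13 and Hoxd13 held 35 and 31, more than Hoxa5. Since CG reads the same on both strands, 1 count covers both. The 24 promoters of 22 coding Hox genes in the table, some of them at start sites inside a gene, had a median of 12.5 CG dinucleotides (range 2 to 35), against 6 over all promoters. Their median ratio of observed to expected CG was 0.721 against 0.374, and the ratio was 0.6 or more in 13 of the 24 and in 34% of all promoters. Methylation and bound factors were not measured, and the counts describe the sequences alone.

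Hoxa5 is a HoxA gene known for its part in patterning the neck and upper trunk and in lung development. It lies at chr6:52201754-52204587 (GRCm38.p6), inside the annotated span of Hoxa3. The brightest probe set of Hoxa5 had an intensity of 386 in 9v, 238 in 10d, 216 in 13d and 481 in 14d. It was above 32 in every line, and 9v and 14d, the lines labelled WT, were both higher than 10d and 13d, the lines labelled bcat*. This probe set carries the suffix _x, which marks probes that may also match other sequences. The other probe set of Hoxa5, which has no suffix, read 66 in 9v, 5 in 10d, 124 in 13d and 5 in 14d. By that probe set Hoxa5 was below the level in 10d and 14d, and the order of the lines was different: 14d was highest by the first and, with 10d, lowest by the second. Both probe sets were above 32 only in 9v and 13d, so the level of Hoxa5 in 10d and 14d rests on 1 probe set of the pair.

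Hoxb3, which in the embryo marks the hindbrain and the neck, lies at chr11:96307101-96347930. Its brightest probe set read 35 in 9v, 37 in 10d, 94 in 13d and 111 in 14d. The 2 lines labelled female, 13d and 14d, stood apart from the 2 labelled male, 9v and 10d, which lay just above the level. Its other probe set read 4 in every line. The female lines differed from each other by 1.18-fold and the male lines by 1.06-fold, and with 2 lines of each sex a difference by sex was not tested. The sex labels matched the transcripts of the sex chromosomes. Xist, which silences an X chromosome in female cells, read 4, 4, 2124 and 1768 in 9v, 10d, 13d and 14d, respectively, and Eif2s3y, a gene of the Y chromosome, 690, 1088, 13 and 13. The part of sex, or of anything else shared by 13d and 14d, in the level of Hoxb3 was not tested.

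Hoxb4, a neighbour of Hoxb3 known for its use in expanding blood stem cells, lies at chr11:96318267-96321638 inside the annotated span of Hoxb3. Its brightest probe set read 27 in 9v, 30 in 10d, 37 in 13d and 35 in 14d. The 13d and 14d values were just inside the level and the 9v and 10d values just outside it, a spread so narrow that the count of lines depends on where the level is set. Its other probe set read 4 in every line.

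Hoxb2, which works in the hindbrain and in facial motor neurons, lies at chr11:96351632-96354020 and has 1 probe set. It read 3 in 9v, 3 in 10d, 3 in 13d and 52 in 14d. Hoxb2 was thus above the level in 14d, by at least 1.62-fold over the other lines, and below it in those. Hoxb9, which acts in the thorax of the embryo, lies at chr11:96271330-96276595 and has 1 probe set as well. It read 6 in 9v, 6 in 10d, 49 in 13d and 6 in 14d. It was above the level in 13d, by at least 1.53-fold over the other lines, and below it in those. The HoxB genes between it and Hoxb4 that were measured (Hoxb5, Hoxb6 and Hoxb7) were at 6 or less in 13d.

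**Figure D2:**
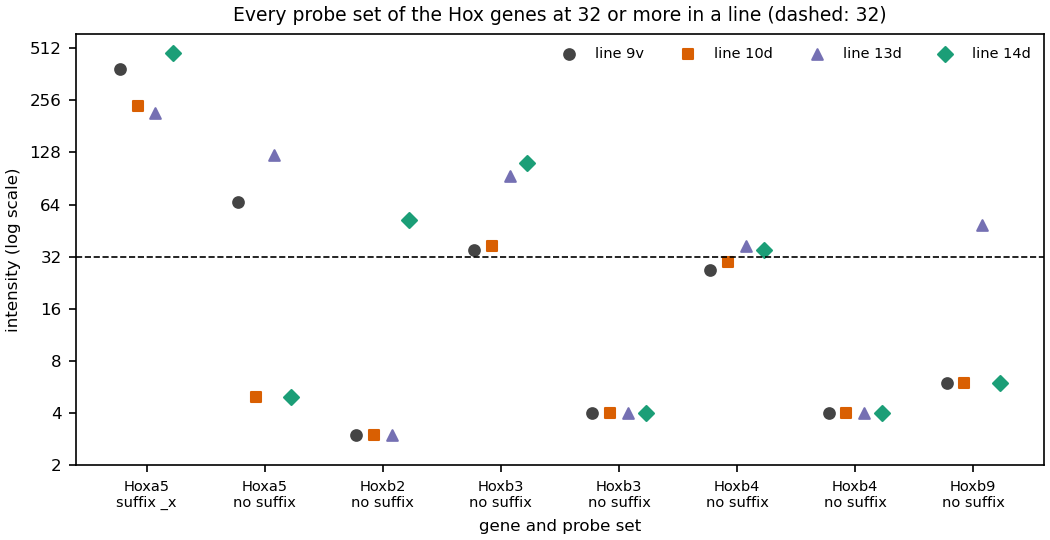
Intensity on a log axis of all 8 probe sets of the 5 Hox genes that reached 32 (dashed line), with 1 symbol per line and gene names on the horizontal axis. The probe sets of Hoxa5 order the lines differently, one probe set of Hoxb3 and one of Hoxb4 stay at 4, and Hoxb2 and Hoxb9 each have a single symbol above the dashed line.

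The remaining 31 Hox genes ranged from 3 to 16 over the 4 lines, and 29 of them were at 10 or less in every line. In 21 of them the intensity was the same whole number in all 4 lines. The exceptions above 10 were in HoxD. Hoxd8, a gene of the trunk, read 16 in 9v, 13 in 10d, 13 in 13d and 7 in 14d, and Hoxd9, which acts in the lumbar region and limbs, read 7 in 9v, 8 in 10d, 7 in 13d and 15 in 14d. Hoxd8 and Hoxd9 both stayed below 32 in every line, and the other probe set of Hoxd8 read 10 in 9v, 6 in 10d, 4 in 13d and 3 in 14d. In HoxA the highest of the undetected genes was Hoxa3, a gene of the pharyngeal region, at 8 in 9v, 6 in 10d, 10 in 13d and 6 in 14d. None of the 7 measured HoxC genes had a value above 9. The posterior genes Hoxa13, Hoxb13, Hoxc13 and Hoxd13, which pattern the ends of the trunk and limbs, were at 5, 7, 5 and 6, each in all 4 lines. The 3 antisense transcripts had no value above 6. Rounding to whole numbers leaves no order among such values.

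Over single probe sets the picture was similar. Of 53 probe sets listed with 1 Hox gene, 47 were below 32 in every line (88.7%, against 61.3% of all 45037 probe sets on the array), and 35 had the same value in all 4 lines (66% against 46%). Another 3 probe sets were listed with a pair of Hox genes, Hoxb8 with Hoxb7 in 1 case and Hoxd4 with Hoxd3 in the others, and none passed 5.

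The share of Hox genes at the detection level lay below that of all genes in each of the 4 lines. Of all 18193 genes 48.8% were at 32 or more in 9v, 48.4% in 10d, 48.9% in 13d and 48.8% in 14d. Of the 36 Hox genes it was 5.56% in 9v and in 10d and 11.1% in 13d and in 14d. Of 144 other homeobox genes it was 13.2% in 9v, 15.3% in 10d, 16% in 13d and 14.6% in 14d. These were picked by symbol after the values had been seen and are not the whole homeobox family. With 5 Hox genes involved, and probe sets that differ in how they bind, these shares are descriptions. With values raised to 32, the genes of the widest range among these 144 were Zeb1, a regulator of the epithelial-mesenchymal transition, at 30, 36, 337 and 11, and Satb1, a chromatin organizer, at 270, 129, 188 and 7, in 9v, 10d, 13d and 14d. The 3 other probe sets of Zeb1 did not pass 9.

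**Figure D3:**
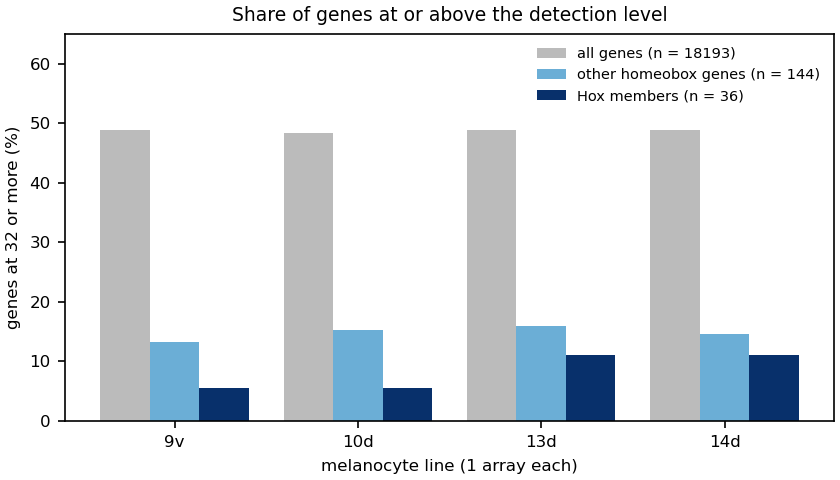
Share of genes at an intensity of 32 or more (vertical axis, %) in each line (horizontal axis, 1 array each) for all 18193 genes, 144 other homeobox genes and the 36 Hox genes. In every line the bar of the Hox genes is the lowest, at 5.56% or 11.1%, and that of all genes stands between 48.4% and 48.9%.

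Lines were then compared by pairs, with values below 32 raised to 32 and genes counted where they were at least 2-fold apart. With 1 array a line these differences have no replicate error and no test was made. Between 9v and 10d, 0 of the 2 Hox genes at 32 or more differed by 2-fold, against 17.9% of all genes at that level in either line. Hoxb3 was 2.69-fold higher in 13d than in 9v, the only 1 of 4 Hox genes past 2-fold (all genes, 13%). It was 3.17-fold higher in 14d than in 9v, again 1 of 4 (all genes, 15.4%).
Between 10d and 13d, Hoxb3 was 2.54-fold higher in 13d, 1 of 4 (all genes, 14.8%). Between 10d and 14d, 2 of 4 Hox genes passed 2-fold, with Hoxb3 3-fold and Hoxa5 2.02-fold higher in 14d (all genes, 23.9%). That Hoxa5 difference comes from the probe set with the suffix, and the other probe set read 5 in both lines. Between 13d and 14d, 1 of 5 passed, Hoxa5 at 2.23-fold higher in 14d (all genes, 19.7%), by the probe set with the suffix, while the other probe set of Hoxa5 was higher in 13d. The pairs share lines, so these counts are not independent, and with 2 to 5 Hox genes a pair no share can be told from that of all genes.

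The question of the study's design, whether the lines labelled bcat* and those labelled WT differ, was then put to the Hox genes with limma over the 9415 genes at 32 or more in at least 1 line. None of the 5 Hox genes passed an adjusted p of 0.05, and neither did any other gene (0 of 9415, 0%), although 737 genes (7.83%) had an unadjusted p under 0.05. Hoxa5 was the Hox gene among these. Its mean log2 value was 7.82 in the bcat* lines and 8.75 in the WT lines, a difference of -0.93 ± 0.27 (SE, n = 2 lines each, limma adjusted p = 0.587). By its probe set without a suffix the difference was 0.45, in the opposite direction (limma adjusted p = 0.962).
The log2 difference was -0.08 ± 0.80 (SE, limma adjusted p = 0.983) for Hoxb3 and 0.12 ± 0.29 (limma adjusted p = 0.925) for Hoxb4. Hoxb2 and Hoxb9 entered the fit through 1 line each, and their differences of -2.06 ± 1.49 and 1.51 ± 1.11 (limma adjusted p = 0.741 for both) are taken against values below detection and give no size. With values raised to 32 they were -0.35 ± 0.33 and 0.31 ± 0.31 (limma adjusted p = 0.77 and 0.786). With the genotypes of the article's methods no Hox gene and no other gene passed either (0 of 9415, 0%), and 309 genes (3.28%) had an unadjusted p under 0.05, none of them a Hox gene. Hoxa5 then differed by 0.23 ± 0.54 (limma adjusted p = 0.986). With 2 lines a side an exact permutation test cannot give a p below 0.333, so none is given for a single gene.

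The cofactors that bind DNA together with Hox proteins were present. Of 8 measured Pbx, Meis and Pknox genes, 7 were at 32 or more in a line and 5 in all of them. Of all 18193 genes, 51.8% were at this level in a line and 45.8% in all lines. The lists here and below hold few genes, and whether their shares differ from these was not tested. Meis2 read 411 in 9v, 1301 in 10d, 628 in 13d and 309 in 14d, and was highest in 10d by each of its probe sets but 1. Pbx3 read 268 in 9v, 266 in 10d, 493 in 13d and 812 in 14d. Its highest lines were 14d and 13d, those in which Hoxb3 was highest as well, by both of its probe sets. A link between Pbx3 and Hoxb3 was not tested.

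Other genes of axial position were mostly undetected. None of the 10 measured genes of the list of Cdx and caudal genes was at 32 or more in any line (all genes, 51.8%). Besides Cdx1, Cdx2, Cdx4, Gdf11, Evx1 and Evx2, this list held Gsx1, Gsx2, Pdx1 and Mnx1, so not every member is a caudal gene. Of 11 genes of limb and dorsoventral identity 2 were. Tbx2, a T-box factor with a known place in melanocytes, read 823 in 9v, 457 in 10d, 1642 in 13d and 672 in 14d. Shox2, a factor of the proximal limb, read 5, 5, 5 and 246, and was thus, like Hoxb2, at 32 or more in 14d and below it in the other lines, though its other probe set did not pass 7. Of 14 genes of cranial neural crest identity 2 were detected, each in all lines. Alx1, a homeobox gene of the facial mesenchyme, read 1323 in 9v, 2666 in 10d, 1215 in 13d and 1742 in 14d, and its other probe set 544, 835, 367 and 555. Six4, a homeodomain factor expressed in cranial tissues and somites, read 374 in 9v, 350 in 10d, 287 in 13d and 232 in 14d, while its 3 other probe sets ran from 4 to 307 and 1 of them, at 4 in every line, stayed below the level. The Dlx genes, Otx1, Otx2, Barx1 and Hand2 of the same list were at 7 or less in each line.

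Regulators of the clusters were widely detected. Of 15 Polycomb subunits 14 were at 32 or more in a line and 12 in all of them (all genes, 51.8% and 45.8%). Jarid2, which helps bring the complex to its sites, read 548 in 9v, 529 in 10d, 941 in 13d and 202 in 14d, and was lowest in 14d by each of its 3 probe sets. Phc2 read 2069 in 9v, 1946 in 10d, 2854 in 13d and 722 in 14d. Both were thus lowest in 14d. Of 10 genes of the trithorax and Mll complexes all 10 were detected in every line (all genes, 45.8%). Rbbp5 read 666 in 9v, 1277 in 10d, 894 in 13d and 334 in 14d, and Ash2l, another core subunit, 962, 520, 1379 and 1218. The other probe set of Ash2l read 29, 41, 60 and 49, and was lowest in 9v rather than 10d.

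Of 13 retinoic acid genes 8 were detected in a line and 7 in all, against 51.8% and 45.8% of all genes. With so few genes a difference was not tested. Aldh1a3, an enzyme that makes retinoic acid, read 45 in 9v, 344 in 10d, 433 in 13d and 32 in 14d. Both lines labelled bcat* were above both labelled WT by each of its 3 probe sets, but the log2 difference of 3.35 ± 0.32 (SE, n = 2 lines each) did not pass the adjustment over all genes (limma adjusted p = 0.19). With the genotypes of the article's methods it was -0.41 ± 1.75 (limma adjusted p = 0.994). Rarb, a receptor whose gene retinoic acid itself induces, read 278 in 9v, 333 in 10d, 267 in 13d and 65 in 14d, and was lowest in 14d. The synthesis genes Aldh1a1 and Aldh1a2 and the degrading enzyme Cyp26a1 were at 6 or less in every line.

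Most genes that flank the clusters were detected. Of 15 measured, 12 were at 32 or more in all 4 lines (all genes, 45.8%). Skap2, beside HoxA, read 2740 in 9v, 846 in 10d, 2985 in 13d and 2385 in 14d. Calcoco1, near HoxC, read 45 in 9v, 154 in 10d, 107 in 13d and 97 in 14d, while no HoxC gene passed 9. The other probe set of Calcoco1 read 6 in every line. By limma, 0 genes of the lists of cofactors, positional genes, regulators and flanking genes passed between the lines labelled bcat* and WT. None did with the genotypes of the article's methods. Over all genes it was 0 of 9415 (0%) both times, so the counts say nothing particular to these lists.

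**Figure D4:**
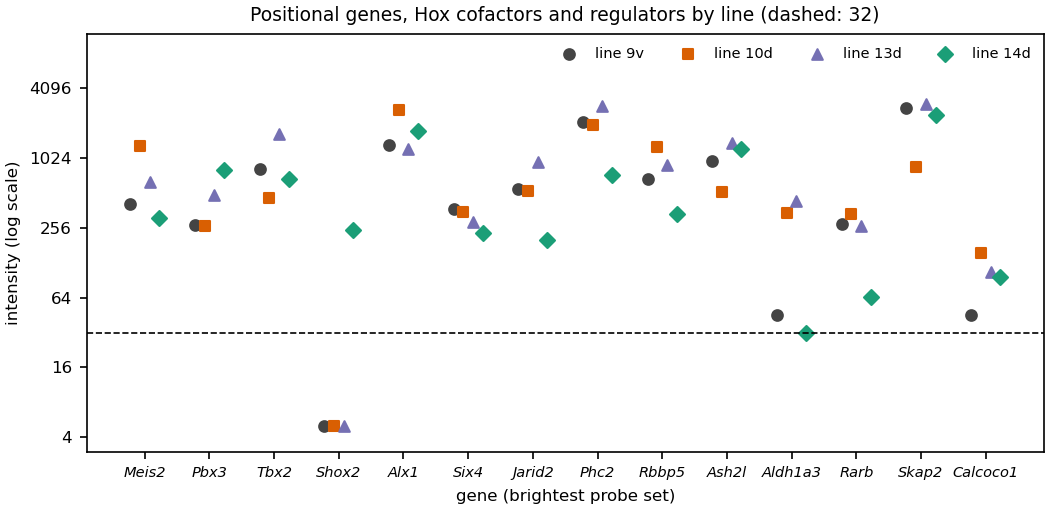
Intensity on a log axis of the genes named from the lists of cofactors, limb genes, cranial genes, Polycomb and trithorax subunits, retinoic acid genes and flanking genes, with 1 symbol per line and 32 as a dashed line. Shox2 is above 32 in 14d alone, Aldh1a3 is highest in 10d and 13d, and Jarid2, Phc2, Rbbp5 and Rarb are lowest in 14d.

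Markers of cell types were set beside these values. Of 12 melanocyte genes 11 were detected in every line (all genes, 45.8%), with Tyrp1, Dct and Pmel between 49559 and 57474, and Ednrb at 29 in each. The widest ranges were those of Oca2, a melanosomal transporter, at 12182 in 9v, 16985 in 10d, 4710 in 13d and 5931 in 14d, and of Gpr143, a melanosomal receptor, at 6108, 6313, 2739 and 5089. Both were lower in 13d and 14d than in 9v and 10d, and a link with the level of Hoxb3, higher in 13d and 14d, was not tested. Of 11 fibroblast genes 2 were detected, Col1a2 at 175 in 9v, 80 in 10d, 24 in 13d and 17 in 14d and Postn at 38, 34, 61 and 20, while Dcn, Lum, Pdgfra and Col3a1 were at 8 or less. The other probe sets of Col1a2 did not pass 7 in any line. The summed fibroblast intensity was 290 in 9v, 185 in 10d, 153 in 13d and 111 in 14d, an order set by Col1a2. The sum of 9 keratinocyte genes was 204, 325, 471 and 165, with Cdh1, an adhesion gene of melanocytes too, at 272 in 13d and at 12 to 16 elsewhere. Krt10, at 148 in 9v, 268 in 10d, 156 in 13d and 106 in 14d, was the gene of this list detected in every line, and Krt5 and Krt14 were at 11 or less. The sum of 6 Schwann cell genes was 183, 489, 3900 and 62, an order set by S100b. S100b read 58 in 9v, 308 in 10d, 3836 in 13d and 5 in 14d. Foxd3, a neural crest factor, read 54, 67, 23 and 23, Pmp2 read 44, 54, 15 and 9, and Mbp was at 8 or less. Foxd3 and Pmp2 were thus lower in 13d than in 9v and 10d, unlike S100b. None of 5 endothelial genes was detected, and of 5 immune genes only Csf1r, at 34 to 51. By the methods, keratinocytes cannot grow in the medium used. The part of other cells in the Hox values was not tested, and in bulk RNA fewer cells of a type and less RNA per cell cannot be told apart.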

How the data were processed

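RNA of 4 melanocyte lines was measured with 1 array each. The authors deposited 1 intensity per probe set, and the submitters' processing notes name GCRMA, which corrects background by probe sequence and normalizes between arrays (its version is not given in the sources used here). Intensities ran from 2 to 84904 without decimals and were taken as linear. Array medians were 7 or 8, and 35.8% to 36.1% of probe sets were at 32 or more. The number of arrays limits the precision.

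Of 45037 probe sets, 34945 were listed with 1 gene in the platform annotation, 932 with several and 9160 had no entry. A RefSeq table of GRCm38.p6 held the Entrez gene of 34741 of those with 1 gene. Log2 was taken and the brightest probe set on average stood for a gene. Promoter sequences are those of RefSeq, and 21 of the 36 Hox genes matched.

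Genes at 32 or more in at least 1 line were tested with limma (lmFit, eBayes) and the Benjamini-Hochberg adjustment over all of them. The labels name separate lines but no replicate numbers, so p-values measure the spread between these lines. The fit was run on simulated data with the same noise in every gene. The genes of these data differ in spread, so this run checked the code alone. Every Hox gene at 32 or more was named, and of each other list up to 2 detected genes with the largest range over the lines. Further genes given as counts or bounds were added after the values were seen. The Hox genes, the lists and the detection level were chosen with earlier results of these data known. Alternatives were detection levels of 16 and 64, a fold of 4, the mean over a gene's probe sets, leaving out suffixed probe sets, quantile normalization, median centring, sex as a block, values raised to 32, no filter, the article's genotypes and leaving out each line. Of the other gene lists, 5 antisense transcripts with other symbols had no probe set listed and were not analysed here. Python 3.11.15, NumPy 2.4.6, pandas 2.3.3, matplotlib 3.10.9, R 4.3.3 and limma 3.58.1 were used.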

Additional observations from a re-analysis of the deposited data

How the results depend on the processing

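The counts of Hox genes rest on values near the detection level. At a level of 16 the count in 9v was 4 rather than 2, with Hoxb4 and Hoxd8 added, so that HoxD no longer had a count of 0 there, and at 64 the counts were 1 in 9v, 1 in 10d, 2 in 13d and 2 in 14d. With the mean of all probe sets they were 1, 1, 2 and 2, since Hoxb3 and Hoxb4 then fell below 32. Without suffixed probe sets the count was 1 in 10d and 3 in 14d, and Hoxa5 was below 32 in both.

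Of Hox genes 2-fold apart, 9v and 10d gave 1 rather than 0 with the mean of probe sets and 1 without suffixed ones. 9v and 13d gave 2 at a level of 16, and 0 at 64, with the mean or at 4-fold. 9v and 14d gave 2 at 16 and without suffixes, and 0 at 64 or 4-fold, as did 10d and 13d. 10d and 14d gave 1 at 64, without suffixes or after median centring, and 0 with the mean or at 4-fold. 13d and 14d gave 3 at 16 and 0 at 4-fold.

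No Hox gene was called between labelled genotypes under any alternative. Over all genes limma called 281 with no filter on dim genes, 6 with the mean of probe sets and 6 after quantile normalization, rather than 0. The sign turned with the article's genotypes for Hoxa5 (0.23), Hoxb2 (2.06), Hoxb3 (0.16) and Hoxb9 (-1.51), and for Hoxa5 without suffixed probe sets (0.45). Leaving out each line gave -0.91 to 0.75 for Hoxb3 and -0.07 to 0.30 for Hoxb4, and -4.12 to 0.00 for Hoxb2 and 0.00 to 3.03 for Hoxb9, which rest on 14d and 13d, respectively. With values raised to 32 Hoxb2 and Hoxb9 came to -0.35 and 0.31. The cause of these changes was not tested, apart from the fewer or other probe sets and genes that an alternative uses by its construction. The labels carry no replicate numbers. With sex as a block, which pairs 1 line of each genotype, limma called 0 genes, and Hoxb3 differed by -0.08 ± 0.34 (SE).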
